A study of Mus musculus with 16 samples.

Results

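The genes described here are 9 members of the tumour necrosis factor (TNF) system in mouse lung endothelial cells (ECs): the receptors Tnfrsf1a, Tnfrsf1b, Tnfrsf9, Cd40, Tnfrsf10b and Fas, the ligands Tnfsf10 and Tnfsf13b, and the intracellular inhibitor Tnfaip3. They were matched by gene symbol in a table of 43346 genes, and all 9 were found. The 9 genes were chosen from their levels and fold changes in these same libraries, so their values are given as a description with no test. ECs were sorted as CD31+ cells negative for CD45, EpCAM and GFP from FVB mice of mixed sex, all carrying a Col1a1-GFP reporter that marks collagen-producing cells. Young animals were 2 months old and aged animals 18 months old. Each age received intratracheal bleomycin, which injures the lung and leads to fibrosis, or PBS as the sham treatment, and ECs were collected about a month later. This gave 5 Young Sham, 3 Aged Sham, 4 Young Bleo and 4 Aged Bleo libraries. The design asks how age, injury and their combination change EC transcripts. The labels do not tie libraries to animals. The study's text describes data points as independent mice, so the spread between libraries is taken as that between mice.

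TNF family ligands are trimers that cluster their receptors on the cell surface. Receptors with a cytoplasmic death domain, such as Tnfrsf1a, Fas and Tnfrsf10b, can recruit adaptors that switch on either NF-kappaB or caspases, whereas Tnfrsf1b, Tnfrsf9 and Cd40 lack that domain and bind TRAF adaptors. In endothelium the pathway is best known for turning on adhesion molecules and chemokines, and Tnfaip3 (A20) is one of the NF-kappaB target genes that shut it off again.

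RefSeq start-site windows of GRCm38.p6, which has the coordinates of the mm10 build used by the authors, were present for 7 of the 9 genes, in 10 windows. They are shown for the 3 genes past the call rule in a bleomycin contrast (Tnfrsf9, Tnfrsf1b and Tnfsf10), for Tnfsf13b with its high Aged Sham level and for the inhibitor, so that the bases upstream of each start can be read beside the values. Capitals mark matches to the kappaB consensus bound by NF-kappaB, to the IRF-type core GAAANNGAA and to the AP-1 site TGANTCA, searched on both strands of the 250 bases before each start. Only the exon-free part of a window, or a short excerpt, is given.
Tnfrsf9, start used by the inner window, chr4:150927947-150927975, plus strand, in an annotated exon: agagcagctGGGGATTTCCCaggaggccc
Tnfrsf1b, chr4:145246871-145247120, minus strand, upstream of the gene: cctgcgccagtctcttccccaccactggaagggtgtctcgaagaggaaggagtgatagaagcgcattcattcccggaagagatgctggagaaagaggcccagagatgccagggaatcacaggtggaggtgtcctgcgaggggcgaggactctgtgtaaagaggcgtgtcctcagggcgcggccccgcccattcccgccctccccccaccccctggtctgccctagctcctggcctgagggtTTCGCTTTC
Tnfsf10, chr3:27316827-27317027, plus strand, upstream of the gene: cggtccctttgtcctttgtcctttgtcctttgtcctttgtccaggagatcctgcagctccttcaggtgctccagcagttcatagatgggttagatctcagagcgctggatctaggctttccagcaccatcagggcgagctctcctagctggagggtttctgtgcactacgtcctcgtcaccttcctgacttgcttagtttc
Tnfsf13b, inner window, chr8:10006607-10006632, plus strand, in an annotated exon: tacaaaaactGAAAGTGAAatgcgga
Tnfaip3, chr10:19015411-19015547, minus strand, exon-free: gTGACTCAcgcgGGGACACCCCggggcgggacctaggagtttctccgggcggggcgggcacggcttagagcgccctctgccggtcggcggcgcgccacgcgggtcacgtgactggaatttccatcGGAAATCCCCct

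The kappaB consensus matched the inner Tnfrsf9 window at positions -43 to -33 from the start and the outer Tnfaip3 window at -125 to -116 and at -12 to -3. It was present in 7.25% of 32851 RefSeq windows of the same length. The IRF-type core stood at -9 to -1 of Tnfrsf1b and in 1 of the Tnfsf13b windows, against 7.13% of all windows. AP-1 sites were found in the windows of Tnfrsf9, Fas, Tnfsf13b and Tnfaip3, against 6.75% of all windows. None of these letters occurred in the Tnfrsf1a and Tnfsf10 windows. A match describes letters in a window and is no evidence of binding.

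Libraries held 20907113 to 71035301 gene counts. Endothelial markers were present in every library. The summed FPKM (fragments scaled to gene length and library size) of 8 endothelial markers was 1970 to 2145 in Young Sham and 1668 to 1842 in Aged Sham. It was 1058 to 1586 in Young Bleo and 977 to 1604 in Aged Bleo. Cldn5 made up most of the Young Sham sum, at 1451 to 1720 FPKM, and was 704.6 to 1032 FPKM in Young Bleo. Kdr was also lower in Young Bleo (26.5 to 103.1 against 115.8 to 190.2 FPKM). Emcn (67.43 to 93.4 against 41.43 to 66.35 FPKM) and Erg (5.105 to 6.13 against 2.52 to 4.76 FPKM) were higher. Pecam1, Cdh5, Tie1 and Vwf overlapped between these groups. The summed FPKM of 16 macrophage and monocyte markers was 23.6 to 40.6 in Young Sham, 52.5 to 164.6 in Aged Sham, 148.9 to 440.2 in Young Bleo and 200.4 to 1412 in Aged Bleo, so it did not overlap between treatments at either age. The lysozyme gene Lyz2 made up most of that sum, while Adgre1 stayed at or below 2.15 FPKM and Ptprc, which encodes the CD45 used to exclude leukocytes, at or below 0.517 FPKM in all 16 libraries. The sum of 5 pan-leukocyte markers was nevertheless higher after bleomycin in young animals, at 1.93 to 4.47 FPKM in Young Sham and 5.88 to 9.43 FPKM in Young Bleo, and it was 7.05 to 17.5 FPKM in Aged Sham and 10.9 to 28.6 FPKM in Aged Bleo. Aged Sham replicate 14 had the highest platelet marker sum of the 16 libraries (3384 FPKM), Aged Bleo replicate 1 the highest macrophage sum and Aged Bleo replicate 5 the highest T and NK cell sum (28.1 FPKM). In the first of these the platelet sum, and in the second the macrophage sum, exceeded the library's own endothelial sum (1668 and 977 FPKM). In bulk samples a change in the number of cells of 1 type cannot be told apart from a change in RNA per cell.

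Expressed per length, the TNF system of Young Sham ECs was led by 3 genes. Mean FPKM was 49.6 ± 1.8 (SD, n = 5) for Tnfrsf1a, 38.5 ± 6.45 for Fas and 26.2 ± 3.88 for Tnfsf10, which placed them 571st, 746th and 1167th among the 43346 genes. Cd40 followed at 8.21 ± 0.748 FPKM. Tnfrsf10b (1.496 ± 0.308 FPKM), Tnfaip3 (1.47 ± 0.524 FPKM) and Tnfrsf1b (1.25 ± 0.505 FPKM) lay within each other's spread. Tnfsf13b stood at 0.559 ± 0.412 FPKM, and Tnfrsf9 was at 0 FPKM in 4 of the 5 libraries. In Young Bleo the same 3 genes led, at 58.7 ± 6.95 FPKM for Tnfrsf1a, 30.1 ± 2.46 for Fas and 13.7 ± 5.28 for Tnfsf10, while Tnfrsf1b had reached 3.99 ± 0.613 FPKM and Tnfrsf9 0.625 ± 0.508 FPKM.

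**Figure D1:**
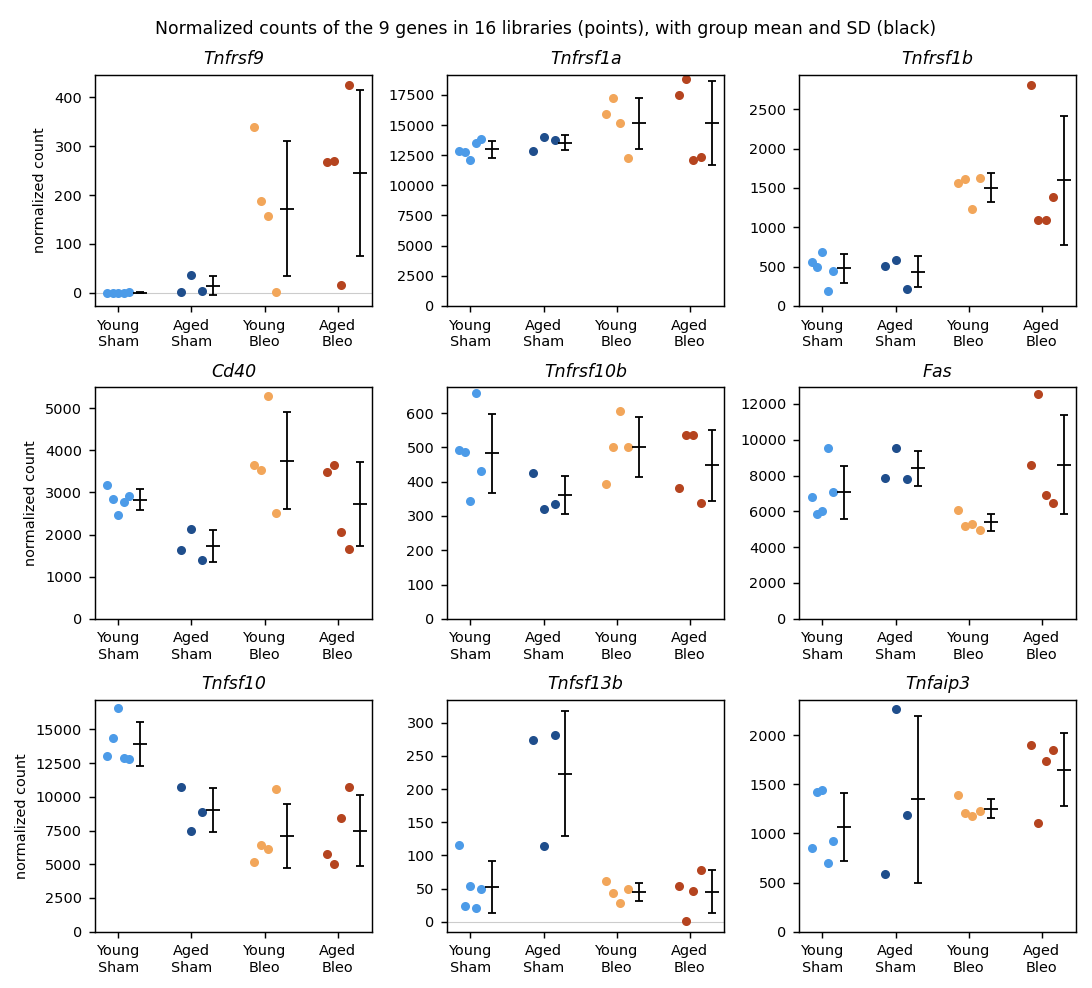
Normalized count (y axis, DESeq2 size factors) of each of the 9 genes in the 16 libraries, grouped on the x axis as Young Sham (5), Aged Sham (3), Young Bleo (4) and Aged Bleo (4), with points for libraries and black bars for the group mean and SD. Tnfrsf1b was at 1090 or more in all 8 bleomycin libraries and at 688.9 or less in all 8 sham libraries, while Tnfrsf9 was low in 1 library of each bleomycin group.

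Tnfrsf1a encodes the widely expressed TNF receptor with a death domain, and its normalized counts changed little. In Young Sham they ran from 12060 through a median of 12810 to 13870 (n = 5), and in Aged Sham they were 12820, 13980 and 13790. The Young Bleo libraries had 15910, 17260, 15170 and 12240, and the Aged Bleo libraries 17490, 18830, 12100 and 12340. All groups overlapped, and Young Bleo replicate 20 and Aged Bleo replicates 3 and 5 sat at sham level. The log2 fold change, given here and below with its standard error from DESeq2, was 0.22 ± 0.15 for Young Bleo against Young Sham, 0.17 ± 0.17 for Aged Bleo against Aged Sham and 0.06 ± 0.16 for Aged Sham against Young Sham.

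Tnfrsf1b encodes the second TNF receptor, which signals through TRAF2 and responds mainly to membrane-bound TNF. Normalized counts were 556.1, 500.9, 688.9, 193.0 and 446.8 in Young Sham and 513.5, 587.3 and 212.0 in Aged Sham. They were 1559, 1613, 1231 and 1622 in Young Bleo and 2812, 1090, 1097 and 1389 in Aged Bleo. Every bleomycin library stood above every sham library at both ages. Mean levels were 3.16-fold higher in Young Bleo than in Young Sham (log2 fold change 1.66 ± 0.37) and 3.65-fold higher in Aged Bleo than in Aged Sham (1.87 ± 0.42). The 2 bleomycin groups differed by 0.08 ± 0.38 on the log2 scale, with a 95% interval of -0.67 to 0.84. The highest Tnfrsf1b count was in Aged Bleo replicate 1, the library with the highest macrophage sum. The part of other cells in this difference was not tested.

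With Tnfrsf1a nearly level and Tnfrsf1b higher, the balance of both TNF receptors differed between treatments. The FPKM of Tnfrsf1a divided by that of Tnfrsf1b was 49.2 ± 31.0 in Young Sham (SD, range 25.8 to 103.1), 55.9 ± 34.6 in Aged Sham (35.1 to 95.8), 15.0 ± 2.92 in Young Bleo (11.1 to 18.2) and 15.99 ± 6.94 in Aged Bleo (9.16 to 25.4). All 8 bleomycin libraries had a lower ratio than all 8 sham libraries, by a narrow margin between 25.4 in Aged Bleo replicate 2 and 25.8 in Young Sham replicate 23. This ratio restates the values that chose the genes and was not tested.

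Tnfrsf9 encodes 4-1BB (CD137), a co-stimulatory receptor best known on activated T and NK cells that can also be induced on endothelium. Raw counts were 0, 0, 0, 0 and 1 in Young Sham and 1, 32 and 4 in Aged Sham. They were 392, 181, 142 and 3 in Young Bleo and 342, 366, 25 and 524 in Aged Bleo. Young Bleo replicate 20 was thus at the level of the sham libraries, and Aged Bleo replicate 3 lay below Aged Sham replicate 14. The mean normalized count of the 4 Young Bleo libraries was 171.7 ± 138.3 (SD) and that of the 4 Aged Bleo libraries 244.5 ± 169.8, which is at least 47.9-fold and at least 68.3-fold higher than Young Sham when a floor of 3 counts per library is set for that group. Leaving out 1 bleomycin library at a time moved the first bound between 32.3 and 63.7 and the second between 51.5 and 89.7. Aged Sham was at least 3.96-fold higher than Young Sham only through replicate 14. The other 2 Aged Sham libraries were at or near the floor. Aged Bleo was 17.2-fold higher than Aged Sham in mean normalized count, with overlapping groups, a value that rests on Aged Sham replicate 14: the fitted log2 fold change was 4.09 over all libraries and 6.38 without it.

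The low Tnfrsf9 library of Young Bleo also had the lowest macrophage marker sum of that group, as Young Bleo replicate 20 was at 148.9 FPKM against 265.3 to 440.2 FPKM in the rest. Among Aged Bleo libraries the highest Tnfrsf9 level was in replicate 5, which had the lowest macrophage sum (200.4 FPKM) and the highest T and NK cell sum (28.1 FPKM, against 0.996 to 4.09 FPKM in the other 3). In Young Bleo the T and NK cell sum was 1.21 to 3.44 FPKM, within or near the 1.80 to 4.09 FPKM of Young Sham, and replicate 20 with the least Tnfrsf9 had the highest of the 4. The part of lymphocytes and macrophages in the Tnfrsf9 counts was not tested. Tnfrsf9 (chr4:150914562-150946102, plus strand) lies within the range of Camta1 on the other strand, which reached 1934 counts. Whether reads were counted by strand is not given in the sources used here.

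**Figure D2:**
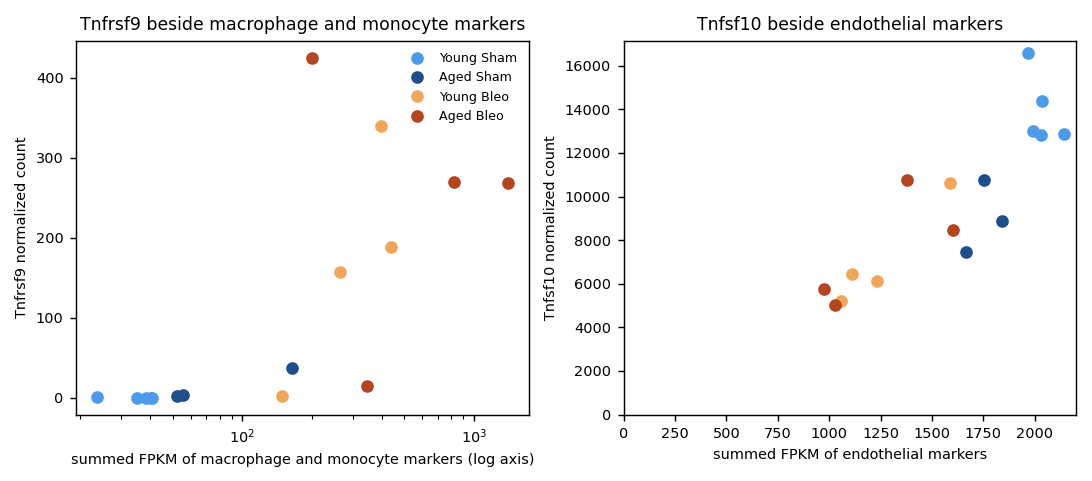
Left, Tnfrsf9 normalized count (y axis) against the summed FPKM of 16 macrophage and monocyte markers (x axis, log scale). Right, Tnfsf10 normalized count (y axis) against the summed FPKM of 8 endothelial markers (x axis). Each point is 1 of 16 libraries, coloured by group. The highest Tnfrsf9 library (Aged Bleo replicate 5, 425.0) had a lower macrophage sum than 6 of the other 7 bleomycin libraries. Within groups, Spearman's rho of Tnfrsf9 with the macrophage sum was 0.54 over the 16 libraries. The 5 Young Sham libraries had both the highest Tnfsf10 (12830 or more, against 10760 or less elsewhere) and the highest endothelial sums.

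Cd40 encodes the receptor for the T cell ligand Cd40lg and is found on antigen-presenting cells and inflamed endothelium. Normalized counts were 3169, 2850, 2456, 2772 and 2908 in Young Sham and 1633, 2141 and 1396 in Aged Sham, so the sham groups did not overlap and aged ECs had 0.609 times the young mean (log2 fold change -0.72 ± 0.27). Young Bleo libraries had 3647, 3534, 5297 and 2518, and Aged Bleo libraries 3481, 3663, 2066 and 1668. Both bleomycin groups overlapped the sham group of their age. The log2 fold change was 0.41 ± 0.25 for Young Bleo against Young Sham and 0.66 ± 0.29 for Aged Bleo against Aged Sham. As for Tnfrsf1a, the lowest bleomycin values were those of Young Bleo replicate 20 and Aged Bleo replicates 3 and 5.

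Fas and Tnfrsf10b encode death receptors, for Fas ligand and for Tnfsf10 (TRAIL). Fas was abundant, with normalized counts of 5846 to 9556 (median 6824) in Young Sham and 7889, 9535 and 7783 in Aged Sham. It was 6091, 5202, 5291 and 4976 in Young Bleo and 8574, 12540, 6897 and 6439 in Aged Bleo. The bleomycin groups did not overlap, and Aged Bleo had 1.60 times the Young Bleo mean (log2 fold change 0.68 ± 0.21). Each bleomycin group overlapped the sham group of its age, with log2 fold changes of -0.39 ± 0.20 in young and 0.04 ± 0.23 in aged animals. Tnfrsf10b was low, at 344.5 to 657.4 normalized counts in Young Sham, 320.8 to 425.6 in Aged Sham, 393.3 to 607.2 in Young Bleo and 337.4 to 536.6 in Aged Bleo. All Tnfrsf10b ranges overlapped, and its log2 fold changes against Young Sham lay between -0.43 ± 0.24 in Aged Sham and 0.05 ± 0.22 in Young Bleo.

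Tnfsf10 encodes TRAIL, the ligand of Tnfrsf10b, which can trigger apoptosis. It was the ligand with the higher level, and it was highest in Young Sham, with normalized counts of 12830 to 16570 and a median of 13000. The Aged Sham libraries had 10740, 7471 and 8876. The Young Bleo libraries had 5191, 6434, 6139 and 10610, and the Aged Bleo libraries 5751, 5008, 8461 and 10760. Every library of the other 3 groups was below every Young Sham library. Young Bleo had 0.509 times (log2 fold change -0.97 ± 0.24), Aged Bleo 0.538 times (-0.89 ± 0.24) and Aged Sham 0.648 times (-0.63 ± 0.26) the Young Sham mean. In aged ECs the treatments overlapped, and the log2 fold change was -0.27 ± 0.27. Young Bleo replicate 20 and Aged Bleo replicates 3 and 5 again stood nearest to sham. Endothelial marker sums were 1379 to 1604 FPKM in these 3 libraries and 977 to 1235 FPKM in the other 5 bleomycin libraries. Whether these sums follow the share of endothelial cells, and their part in the lower Tnfsf10 level, was not tested.

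Tnfsf13b encodes BAFF, a survival factor for B cells, and was scarce. Normalized counts were 116.1, 23.1, 53.3, 19.9 and 49.9 in Young Sham, 273.8, 114.2 and 282.4 in Aged Sham, 27.6 to 60.7 in Young Bleo, and 54.1, 0.737, 46.2 and 78.7 in Aged Bleo. Aged Sham was thus the one high group. Its mean was 4.26 times that of Young Sham (log2 fold change 2.09 ± 0.78), with overlap through Aged Sham replicate 14 and Young Sham replicate 21. Aged Bleo had 0.201 times the Aged Sham mean (log2 fold change -2.32 ± 0.81), and these 2 groups did not overlap. B cell marker sums were 1.87 to 4.52 FPKM in Aged Sham against 0.292 to 1.66 FPKM in Young Sham, and their part in this difference was not tested.

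Tnfaip3 encodes A20, a ubiquitin-editing enzyme that ends NF-kappaB signalling. Normalized counts were 845.9, 1419, 1439, 700.7 and 919.1 in Young Sham and 591.5, 2265 and 1186 in Aged Sham. They were 1393, 1208, 1176 and 1232 in Young Bleo and 1903, 1104, 1737 and 1848 in Aged Bleo. Aged Sham spanned the range of all other groups, since replicate 14 held the highest and replicate 13 the lowest count of the 16 libraries. The log2 fold change was 0.63 ± 0.32 for Aged Bleo against Young Sham, 0.24 ± 0.32 for Young Bleo against Young Sham and 0.34 ± 0.35 for Aged Sham against Young Sham, which became -0.25 without Aged Sham replicate 14.

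**Figure D3:**
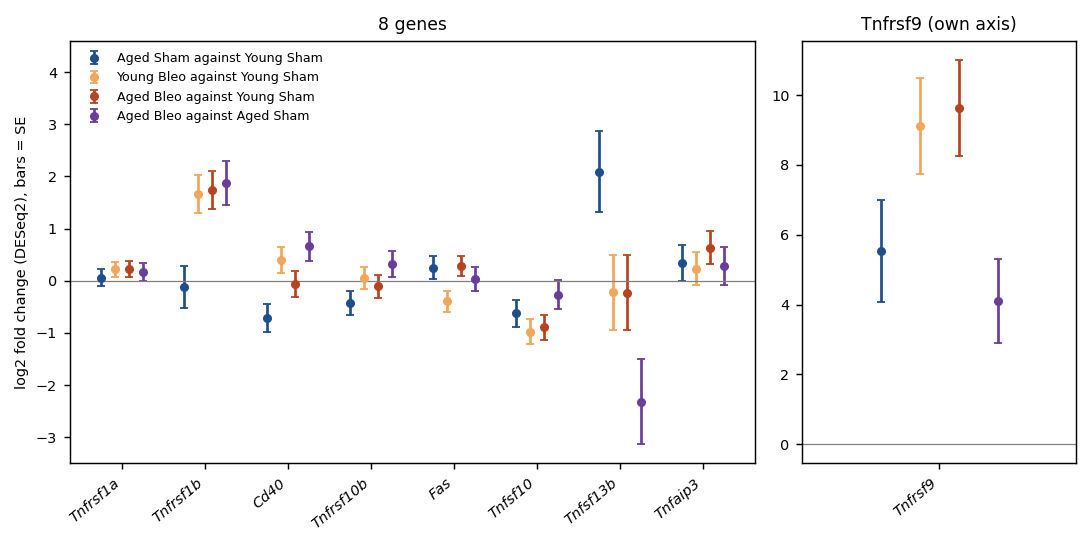
DESeq2 log2 fold changes (y axis) of the 9 genes (x axis) in 4 contrasts, with bars for the standard error. Tnfrsf9 has its own axis, and its fitted values against Young Sham are no bound because 4 of 5 Young Sham libraries are at 0. Tnfrsf1b is raised by 1.66 to 1.87 in the 3 contrasts with a bleomycin group, and Tnfsf10 is lowered against Young Sham in all 3 other groups.

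Genes were called where DESeq2's adjusted p was 0.05 or less and the log2 fold change was 0.5 or more in size. In Aged Sham against Young Sham, 1 of the 9 genes (Tnfrsf9) was past this call rule as higher and 0 as lower, where 2.24% of all tested genes were called higher and 1.12% lower. In Young Bleo against Young Sham, Tnfrsf9 and Tnfrsf1b were past it as higher and Tnfsf10 as lower, with backgrounds of 7.57% and 6.35%. The same 3 genes were past it in Aged Bleo against Young Sham, with backgrounds of 6.58% and 3.14%. In Aged Bleo against Aged Sham, Tnfrsf9 and Tnfrsf1b were past it as higher and 0 as lower (3.40% and 2.45%). Aged Bleo against Young Bleo had 0 in either direction (0.585% and 0.406%). The response difference, which is the bleomycin response of aged ECs minus that of young ECs, also had 0 (0.137% and 0.240%). Because these contrasts chose the genes, nothing is read from the counts. Contrasts with Young Sham share those 5 libraries.

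The counts changed with the setting (another test, another scaling or 1 library left out, 23 in all), which is given as a description only. Tnfrsf9 was no longer past the rule in 5 settings for Aged Sham against Young Sham, namely edgeR (fitted log2 fold change 5.45), only those groups fitted (5.52), limma on log2 FPKM (0.46), without Aged Sham replicate 14 (3.25) and without the 3 libraries of highest marker sums (3.24), against 5.53 in all libraries. It was also no longer past it in 9 settings for Aged Bleo against Aged Sham, namely edgeR (log2 fold change 4.07), limma on log2 FPKM (2.40) and leaving out any of Aged Bleo replicates 1, 2 or 5, Aged Sham replicates 13 or 15, Young Bleo replicate 19 or Young Sham replicate 25 (3.60 to 4.10). Tnfrsf1b was no longer past it in 1 setting for Aged Bleo against Young Sham, where the 3 libraries with the highest marker sums were left out and the log2 fold change was 1.201, and in 1 for Aged Bleo against Aged Sham, under edgeR (1.89). Other members came past it in 1 to 3 settings. Fas did so for Aged Bleo against Young Bleo without Aged Bleo replicate 5 or Young Sham replicate 24. Cd40 and Tnfsf10 did so for Aged Sham against Young Sham when only those groups were fitted, and Cd40 for Aged Bleo against Aged Sham without Aged Bleo replicate 5. Tnfsf13b did so in 3 settings for Aged Sham against Young Sham (only those groups fitted, or without Aged Bleo replicate 2 or Young Sham replicate 21) and in 3 for Aged Bleo against Aged Sham (without Aged Bleo replicate 2, Aged Bleo replicate 5 or the 3 libraries with the highest marker sums).

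Some pairs of members varied together among libraries of the same group, and others did not. After the group mean of the log2 level was subtracted, Spearman's rho over the 16 libraries was 0.81 between Tnfrsf1a and Fas, 0.73 between Cd40 and Fas and 0.67 between Tnfrsf1a and Cd40. Tnfsf10 ran the other way, with rho of -0.87 against Fas and -0.84 against both Tnfrsf1a and Cd40. Pairs such as Tnfrsf1a with Tnfrsf10b (0.04), Tnfrsf9 with Tnfrsf1b (0.07) and Tnfsf10 with Tnfaip3 (0.08) were near 0. Tnfrsf1b followed none of the other receptors closely, with rho between -0.50 against Tnfrsf10b and 0.14 against Cd40. On the same scale Tnfsf10 had rho of 0.70 with the endothelial marker sum, -0.75 with the macrophage sum, 0.85 with the dendritic cell sum and 0.82 with the T and NK cell sum. In the same order Tnfrsf1a had -0.76, 0.73, -0.78 and -0.68. Tnfrsf1b had -0.46, 0.37, 0.05 and 0.07, and its highest was 0.50 with the pan-leukocyte sum. Tnfrsf9 had rho of -0.57 with the endothelial sum, 0.54 with the macrophage sum and 0.61 with the pan-leukocyte sum. The dendritic cell sum rested mainly on Clec9a and Zbtb46, while Flt3 stayed at or below 0.049 FPKM and Xcr1 at or below 0.27 FPKM. A rho with it is therefore not read as a link to dendritic cells. All these rho values are descriptions of 16 libraries in which each pair of genes shares its library's depth and sort. They are given with no p.

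Of 13774 genes whose normalized count averaged 50 or more, those most like Tnfrsf1a by this measure were Ctsb (rho 0.950), which encodes the lysosomal protease cathepsin B, then Lipa (0.938) and Sigirr (0.935). For Cd40 they were Tmem120b (0.953), Gatsl3 (0.938) and Tubb2b (0.926), and for Fas Tspan4 (0.938), Atg101 (0.932) and Gm13394 (0.932). For Tnfsf10 they were Gm26811 (0.935), 1700061H18Rik (0.932) and the myosin gene Myo18a (0.929). Tnfrsf1b was most like Tprn (0.871), Kcnh1 (0.859) and Gm13066 (0.821), and Tnfrsf9 most like B430306N03Rik (0.832), Clec12a (0.830), a myeloid lectin receptor, and the channel gene Panx1 (0.819). Tnfrsf10b was most like Cept1 (0.885), Tnfsf13b like Nek8 (0.809) and Tnfaip3 like the endocytic scaffold gene Itsn2 (0.935).

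Around the 9 genes stand 110 further genes of the pathway in 6 lists, of which 101 were tested in each contrast with a sham group. In Young Bleo against Young Sham, 16 of these were higher and 6 lower, where 7.57% and 6.35% of all genes tested were called. The medians of log2 fold change were 0.10 for the 101 and 0.01 for all genes tested. In Aged Bleo against Young Sham 17 were higher and 2 lower (6.58% and 3.14% of all genes, medians 0.14 and 0.02). In Aged Bleo against Aged Sham 8 were higher and 3 lower (3.40% and 2.45%, medians 0.14 and 0.01). In Aged Sham against Young Sham 4 were higher and 1 lower (2.24% and 1.12%, medians 0.04 and 0.02). edgeR's quasi-likelihood test called 17, 14, 2 and 3 genes in these contrasts, each also called by DESeq2. In the same order it called 1043 higher and 750 lower, 770 and 273, 82 and 64, and 128 and 30 of all 18324 genes it tested. Adjusted p-values in what follows are Benjamini-Hochberg values of the DESeq2 test over all genes tested.

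**Figure D4:**
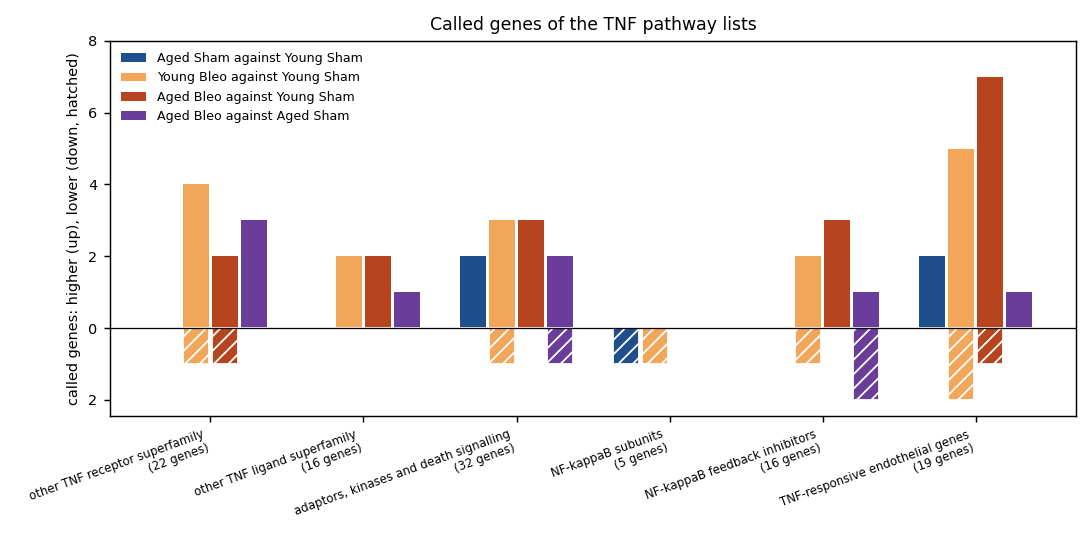
Number of genes called higher (bars above 0) and lower (hatched bars below 0) in each of the 6 TNF pathway lists (x axis, with list size) in 4 contrasts. The genes responsive to TNF in endothelium gave 7 of 19 called higher in Aged Bleo against Young Sham, where 6.58% of all genes tested were called higher. Of the 5 NF-kappaB subunits 0 were called higher in the 4 contrasts. As 2.24% to 7.57% of all genes tested were called higher there, nothing is read from this 0.

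Of 22 other receptors, 18 were tested, and 4 rose and 1 fell in Young Bleo against Young Sham (7.57% and 6.35% of all genes). Tnfrsf13b, which encodes TACI, a receptor for BAFF, had normalized counts of 36.3 to 116.4 in Young Sham and 326.6, 332.7, 347.1 and 166.9 in Young Bleo (log2 fold change 2.04 ± 0.55, adjusted p = 0.0029). It also rose in Aged Bleo against Aged Sham (2.51 ± 0.63, adjusted p = 0.0037), where edgeR gave an adjusted p of 0.074. Tnfrsf25, the receptor for Tnfsf15, rose from 28.5 ± 23.6 to 112.9 ± 44.1 normalized counts (1.98 ± 0.61, adjusted p = 0.012), with an edgeR adjusted p of 0.051. Tnfrsf11a, which encodes RANK, rose by 1.85 ± 0.56 (adjusted p = 0.010), a call that was lost without Young Bleo replicate 17. In Aged Bleo against Aged Sham, Tnfrsf25 had 0.61 ± 0.69 (adjusted p = 0.72) and Tnfrsf11a 0.88 ± 0.64 (adjusted p = 0.51). Tnfrsf14, the receptor for Tnfsf14, fell by 0.71 in Young Bleo (SE 0.21, adjusted p = 0.0081). In Aged Bleo it was also lower than in Young Sham (-0.69 ± 0.21, adjusted p = 0.014, edgeR 0.059). The Tnfrsf25 call was also lost without Young Bleo replicate 17 (log2 fold change 1.70, and 1.67 for Tnfrsf11a). The first Tnfrsf14 call was lost without Young Bleo replicate 17 or 18 (-0.56 and -0.63), and the second without Aged Bleo replicate 1 or Young Sham replicate 21 or 24 (-0.62 to -0.60).

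The TRAIL decoy receptor Tnfrsf22 and its neighbour Tnfrsf26 on chromosome 7 rose in Aged Bleo against Aged Sham. Tnfrsf23, beside them, had a log2 fold change of 2.14 in that contrast and was not called. Tnfrsf22 had 267.8, 443.1 and 377.4 normalized counts in Aged Sham and 899.3, 656.0, 762.5 and 833.0 in Aged Bleo (log2 fold change 1.11 ± 0.24, adjusted p = 6.3e-04), so the groups did not overlap. Its value in Young Bleo against Young Sham was 0.56 ± 0.21 (adjusted p = 0.054), which was called without Young Sham replicate 22 (0.735) or Aged Sham replicate 13 or 14 (0.56 in both). Tnfrsf26 rose by 1.26 ± 0.39 in Young Bleo against Young Sham (adjusted p = 0.012), a call lost without Young Bleo replicate 17 or 18 (1.136 and 1.144). In aged ECs it rose by 1.62 ± 0.44 (adjusted p = 0.0094, edgeR 0.080), with overlap through Aged Bleo replicate 3, and this call was lost without Aged Bleo replicate 1 or 2 or Aged Sham replicate 13 (1.34 to 1.45). The 7 receptor genes on chromosome 4 stood within 10.8 megabases and included Tnfrsf1b and Tnfrsf9. In Young Bleo against Young Sham, Tnfrsf1b, Tnfrsf9 and Tnfrsf25 were called higher and Tnfrsf14 lower (7.57% and 6.35% of all genes). Tnfrsf4, Tnfrsf8 and Tnfrsf18, with low means of 18.6, 2.37 and 27.0 normalized counts, were not called. Tnfrsf1b and Tnfrsf9 were chosen from these same values, so nothing is read from this tally.

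Of the ligands that bind member receptors, Tnf, Lta, Cd40lg and Fasl were scarce in these ECs, unlike Tnfsf10. Tnf had 0, 13.2, 0, 0 and 0 normalized counts in Young Sham, 2.00, 3.46 and 14.6 in Aged Sham, 29.5, 14.6, 0 and 3.09 in Young Bleo, and 2.35, 78.1, 6.60 and 3.24 in Aged Bleo. Its log2 fold change was 2.10 ± 1.66 for Young Bleo against Young Sham (adjusted p = 0.45) and 1.73 ± 1.86 for Aged Bleo against Aged Sham (adjusted p = 0.69). Lta lay between 0 and 48.0 and Cd40lg between 0 and 16.4 normalized counts over all 16 libraries. Fasl reached 158.2 in Aged Bleo replicate 5 and 20.8 or less in every other library.

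Tnfsf9, which encodes 4-1BBL, the ligand of Tnfrsf9, rose in both bleomycin groups against Young Sham. Normalized counts were 15.1, 33.8, 28.7, 1.17 and 17.6 in Young Sham, 5.995, 63.5 and 52.1 in Aged Sham, 56.3, 140.4, 80.5 and 53.3 in Young Bleo, and 210.1, 160.7, 82.2 and 78.7 in Aged Bleo. The log2 fold change was 2.10 ± 0.66 for Young Bleo against Young Sham (adjusted p = 0.014), where the groups did not overlap, edgeR gave 0.065 and the call was lost without Young Bleo replicate 18 (1.72), and 2.79 ± 0.66 for Aged Bleo against Young Sham (adjusted p = 7.8e-04). Against Aged Sham it was 1.69 ± 0.74 (adjusted p = 0.17). In Young Bleo replicate 20, with 3 counts of Tnfrsf9, Tnfsf9 stood at 53.3, above every Young Sham value. Tnfsf8, below the level set for named genes and singled out after its values were seen, was the other ligand called higher, by DESeq2 and edgeR in both bleomycin groups against Young Sham and by DESeq2 but not edgeR in Aged Bleo against Aged Sham. Of the 16 other ligands, 11 were tested in these contrasts, and the rest could not be called.

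Of 19 genes that TNF induces in endothelium, 5 rose and 2 fell in Young Bleo against Young Sham (7.57% and 6.35% of all genes), 7 rose and 1 fell in Aged Bleo against Young Sham (6.58% and 3.14%), 2 rose in Aged Sham against Young Sham (2.24%) and 1 rose in Aged Bleo against Aged Sham (3.40%). The chemokine genes Ccl2 and Cxcl10 rose in Young Bleo against Young Sham, Ccl2 by 2.99 ± 0.89 on the log2 scale (adjusted p = 0.0085, edgeR 0.054) and Cxcl10 by 2.06 ± 0.49 (adjusted p = 6.9e-04). Cxcl10 also rose in Aged Sham, from 3.30 to 28.7 normalized counts in Young Sham to 193.8, 193.8 and 261.4 (log2 fold change 3.74 ± 0.53, adjusted p = 1.8e-09). Aged Bleo was likewise above Young Sham (3.65 ± 0.49, adjusted p = 4.3e-11), and its value against Aged Sham was -0.09 ± 0.52 (adjusted p = 0.96). For Ccl2 the value in Aged Bleo against Aged Sham was 2.80 ± 1.01 (adjusted p = 0.072), which was called without Aged Bleo replicate 5 (3.18), without Young Sham replicate 22 or with only those groups fitted (2.80 in both). Icam1, the leukocyte adhesion molecule, fell from 44660 to 50730 normalized counts in Young Sham to 9216, 9003, 8593 and 26830 in Young Bleo (-1.79 ± 0.40, adjusted p = 2.0e-04). Cx3cl1, the chemokine fractalkine, fell in Young Bleo by 1.47 (SE 0.37, adjusted p = 0.0011). Aged Bleo was also below Young Sham for Cx3cl1 (log2 fold change -1.17 ± 0.37, adjusted p = 0.017, edgeR 0.079). For both genes the highest Young Bleo value was that of replicate 20, as for Rela and Map3k5 below. That library also had the highest endothelial marker sum of its group (1586 FPKM). The part of that sum in the lower levels of these genes was not tested. In Aged Bleo against Aged Sham, Icam1 had -1.02 ± 0.45 (adjusted p = 0.18) and Cx3cl1 -0.86 ± 0.42 (adjusted p = 0.23), and both were called lower without Aged Bleo replicate 3 (-1.40 and -1.19). Tnfaip2 rose at both ages, by 1.04 ± 0.24 in Young Bleo against Young Sham (adjusted p = 4.7e-04) and by 1.08 ± 0.28 in Aged Bleo against Aged Sham (adjusted p = 0.0047, edgeR 0.057), and Tnfaip8 in Aged Sham by 1.33 ± 0.28 (adjusted p = 2.9e-04). Calls were lost for Ccl2 in Young Bleo without replicate 17 of that group (2.58), for Tnfaip2 in Aged Bleo without Aged Sham replicate 15 (0.94) and for Cx3cl1 in Aged Bleo without Aged Bleo replicate 1 or 2 or Young Sham replicate 22 (-1.12 to -0.93).

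Of the 5 NF-kappaB subunits, Rela fell in Young Bleo, with 18520 to 23110 normalized counts in Young Sham and 9343, 9804, 10160 and 15490 in Young Bleo (log2 fold change -0.91 ± 0.26, adjusted p = 0.0048), and had -0.50 ± 0.29 in Aged Bleo against Aged Sham (adjusted p = 0.35), called lower without Aged Bleo replicate 3 (-0.79). Nfkb1 fell in Aged Sham by 0.51 (SE 0.15, adjusted p = 0.033, edgeR 0.12), a call lost without any 1 of the 3 Aged Sham libraries, Young Bleo replicate 18 or Young Sham replicates 21, 24 or 25 (-0.55 to -0.46). The list of NF-kappaB feedback inhibitors held 16 genes, and whether each of them acts as an inhibitor in these cells was not tested. Among them, Nfkbiz rose in Aged Bleo against Young Sham by 1.56 ± 0.30 (adjusted p = 1.6e-05), from 222.3 to 272.8 normalized counts to 504.9 to 946.3. It rose by 0.84 ± 0.30 in Young Bleo against Young Sham (adjusted p = 0.037, edgeR 0.073), a call lost without any 1 of 7 young libraries (0.72 to 0.87), with limma on log2 FPKM (0.71) and with no filters (0.84). Its value in Aged Bleo against Aged Sham was 0.73 ± 0.34 (adjusted p = 0.21), called higher without Aged Sham replicate 14 (1.24). Nfkbie, which encodes an inhibitor that holds NF-kappaB in the cytoplasm, fell in Young Bleo by 0.52 (SE 0.15, adjusted p = 0.0062), a call lost without Young Bleo replicate 18 or 19 or Young Sham replicate 21 or 22 (-0.50 to -0.44), and had -0.20 ± 0.17 in Aged Bleo against Aged Sham (adjusted p = 0.60). Bcl3 rose by 1.18 ± 0.26 in Young Bleo against Young Sham (adjusted p = 2.1e-04), where the groups did not overlap. In Aged Bleo against Aged Sham, Bcl3 rose by 0.94 ± 0.30 (adjusted p = 0.033, edgeR 0.105), and Nfkbia fell by 0.59 (SE 0.18, adjusted p = 0.023, edgeR 0.093), as did the deubiquitinase gene Otud7b by 1.00 (SE 0.30, adjusted p = 0.022, edgeR 0.092). The young values were -0.10 ± 0.16 for Nfkbia (adjusted p = 0.75) and -0.55 ± 0.26 for Otud7b (adjusted p = 0.16), the second called lower without Young Bleo replicate 20 (-0.79). The 3 calls in aged ECs were each lost without 3 or 4 of the 7 aged libraries. The value was 0.73 for Bcl3 and -0.90 for Otud7b without Aged Bleo replicate 1, 0.77 and -0.99 without Aged Bleo replicate 2, and -0.51 for Nfkbia and -0.50 for Otud7b without Aged Sham replicate 14. Bcl3 was also lost without Aged Sham replicate 13 or 15 (1.00 and 0.81), and Nfkbia without Aged Bleo replicate 1 or 5 or Aged Sham replicate 13 (-0.61 to -0.53).

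Among 32 adaptors, kinases and death-signalling genes, Bid, a pro-apoptotic BCL2 family gene cleaved downstream of death receptors, had 715.6 to 1095 normalized counts in Young Sham and 1738, 3083 and 1526 in Aged Sham (log2 fold change 1.18 ± 0.24, adjusted p = 2.1e-04). It fell in Aged Bleo against Aged Sham by 1.23 (SE 0.25, adjusted p = 2.6e-04), to 613.1, 930.2, 1044 and 1020, and had 0.15 ± 0.22 in Young Bleo against Young Sham (adjusted p = 0.74). Bid was the 1 pathway gene whose bleomycin response differed between ages (difference -1.38 ± 0.34, adjusted p = 0.020). edgeR gave 0.34 for it, and the call was lost without Aged Sham replicate 14 (-1.004), Young Bleo replicate 17 or 18 or Young Sham replicate 22 (-1.39 to -1.36). Aged Sham libraries, where Cxcl10, Tnfaip8, Bid and Cflar were called higher, also had platelet marker sums of 626.8 to 3384 FPKM against 270.2 to 511.5 in Young Sham and pan-leukocyte sums of 7.05 to 17.5 against 1.93 to 4.47 FPKM. Tnfaip8 and Bid were highest in replicate 14, the library with the highest platelet sum, and the part of these cells in the calls was not tested. Cflar, which encodes the caspase-8 inhibitor c-FLIP, rose in Aged Sham by 0.56 ± 0.14 (adjusted p = 0.0070, edgeR 0.082), and its call was lost without Aged Sham replicate 13 or 14 (0.51 and 0.54). Ripk3, the kinase of necroptosis, rose at both ages, by 0.90 ± 0.26 in Young Bleo against Young Sham (adjusted p = 0.0080, lost without Young Bleo replicate 17 at 0.73) and by 1.25 ± 0.30 in Aged Bleo against Aged Sham (adjusted p = 0.0024, edgeR 0.051). Map3k5, which encodes the stress kinase ASK1, fell in Young Bleo by 1.40 (SE 0.39, adjusted p = 0.0044) and had -0.57 ± 0.44 in Aged Bleo against Aged Sham (adjusted p = 0.54).

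Between Aged Bleo and Young Bleo, DESeq2 and edgeR each called 0 of the pathway genes. Over all genes tested DESeq2 called 0.585% higher and 0.406% lower, and edgeR called 7 of 18324 higher and 1 lower. For the response difference edgeR called 0 pathway genes, and over all 18324 genes it called 0 higher and 1 lower. Nothing is read from these counts of 0. Macrophage and monocyte marker sums moved with the bleomycin contrasts of each list, with the ranges given above. Platelet marker sums were lower after bleomycin at both ages, without overlap. They were 64.97 to 481.6 FPKM in Aged Bleo against 626.8 to 3384 in Aged Sham. In young animals they were 109.3 to 245.9 FPKM in Young Bleo against 270.2 to 511.5 in Young Sham. Bid, Otud7b and Nfkbia were called lower in Aged Bleo against Aged Sham. Their highest counts were in Aged Sham replicate 14, which had the highest platelet sum. The part of all these marker sums in the calls was not tested. Without the 3 libraries of highest marker sums, DESeq2 called 6 pathway genes in place of 11 in Aged Bleo against Aged Sham. That fit also had fewer libraries in both aged groups, and 5 were called without Aged Bleo replicate 1 alone. Nothing is read from it about other cells.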

How the data were processed

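Bulk RNA-seq of 16 libraries in 4 groups was used. Per the labels and methods, the authors aligned reads to mm10 with STAR 2.5.2b and counted them per gene with Subread featureCounts, and they deposited raw counts and FPKM for 43346 genes. FPKM were scaled by the authors to gene length and to a library total larger than the summed counts. Strand and multi-mapping rules are not given in the sources used here, and the library kit is stated differently in the labels and the methods. Every sample column was mapped by its label.

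Counts were fitted with DESeq2 1.42.0 (R 4.3.3) as 1 model of 4 groups over 16 libraries with default filters. P-values were adjusted by Benjamini-Hochberg over all genes tested, and calls needed 0.05 or less with a log2 fold change of 0.5 or more in size. Normalized counts are counts divided by DESeq2 size factors. Alternatives were edgeR 4.0.16 with TMM, limma 3.58.1 on log2(FPKM + 0.1), TMM size factors, no filters, a filter of 10 counts in 3 libraries, a fit of only the groups compared, each library left out, and, chosen after seeing the data, the 3 libraries with the highest platelet, macrophage and T and NK cell sums left out. Scripts were tested on simulated data. Total counts were 20907113 to 71035301 per library. The 9 genes and all gene and marker lists were chosen with earlier results of these data known. Outside the members, the genes named were at most 6 called per direction and contrast whose normalized count averaged 50 or more, ordered by the size of the change, plus the ligands of the members. Their values in other contrasts were added after seeing the data, beside the calls. 1 of the macrophage markers, Adgre1, was matched by gene identifier. Promoter sequences are RefSeq windows of GRCm38.p6.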

Additional observations from a re-analysis of the deposited data

Results flagged for a closer look

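In 110 groups of 4 or 5 libraries, 16 values stood apart from the rest of their group by Dixon's criterion, where chance alone gives about 1 in 20. Among the members these were Tnfrsf9 in Young Sham replicate 25 (0.978 normalized counts, a single read beside libraries at 0) and Tnfrsf1b in Young Bleo replicate 19 (1231, the lowest of its group). Young Bleo replicate 20 stood apart for 5 genes, with 26830 normalized counts for Icam1, 6896 for Cx3cl1, 15490 for Rela, 166.9 for Tnfrsf13b and 8.50 for Cd40lg. All but Cd40lg lay nearer to Young Sham than the rest of its group. Young Sham replicate 25 was high for Icam1 (50730), Lta (38.1) and Tnfrsf11a (196.5), and Young Sham replicate 22 for Tnf (13.2). Aged Bleo replicate 2 was high for Cflar (5132) and Tnf (78.1), and Young Bleo replicate 17 for Tnfaip8 (794.5). Aged Bleo replicate 5 was high for Fasl (158.2) and low for Tnfrsf25 (32.4). It also had the highest T and NK cell marker sum (28.1 FPKM), whose part was not tested. The bleomycin response of Bid differed between ages by -1.38 on the log2 scale in the DESeq2 interaction test.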

How the results depend on the processing

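No paired analysis was possible because replicate numbers do not repeat between groups. Under edgeR the number of pathway genes called was 3 instead of 5 in Aged Sham against Young Sham, 2 instead of 11 in Aged Bleo against Aged Sham and 0 instead of 1 for the response difference. Calls over all genes fell as well. In the same order edgeR called 128 higher and 30 lower, 82 and 64, and 0 and 1. DESeq2 called 415 and 207, 630 and 453, and 28 and 49. Under limma on log2 FPKM the pathway counts were 2, 5 and 0. Without the 3 libraries of highest marker sums, 6 were called in Aged Bleo against Aged Sham and 0 for the response difference. By adjusted p alone, 1 was called in Aged Bleo against Young Bleo. With 1 library left out at a time, the counts ran from 4 to 7 in Aged Sham against Young Sham, 15 to 25 in Young Bleo against Young Sham, 11 to 22 in Aged Bleo against Young Sham, 5 to 15 in Aged Bleo against Aged Sham, 0 to 3 in Aged Bleo against Young Bleo and 0 to 2 for the response difference. The lowest Aged Bleo counts, 11 against Young Sham and 5 against Aged Sham, came without Aged Bleo replicate 1, and 7 were called in the second without Aged Bleo replicate 2. The highest Aged Bleo against Young Bleo count, 3, came without Young Bleo replicate 20. Cxcl10 in Aged Bleo against Aged Sham, not called, ran from -0.399 to 0.08 and was above 0 without Aged Bleo replicate 3 or Aged Sham replicate 15. The cause was not tested. Of the members' log2 fold changes, 12 values in all moved by more than the spread between replicates, those of Tnfrsf9 and Tnfaip3. Low counts limit Tnfrsf9, Tnfsf13b and the ligand Tnf.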
